A study of Mus musculus with 8 samples.

Results

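The genes described are the mouse histone genes of the Hist clusters, taken as every gene whose symbol starts with Hist1h, Hist2h, Hist3h or Hist4h and divided by the class that the symbol names. The rule found 50 of the 13838 genes in either deposited table. Of these, 47 were in the footprint table and all 50 in the total RNA table, and all of them passed the filter on low values there. They comprised 6 linker histone H1 genes, 15 H2A, 12 H2B, 5 H3 and 12 H4 genes. The Hist1 cluster held 42 of them, Hist2 held 5, Hist3 held 3, and none carried a Hist4 symbol. Hist1h4n, Hist2h2be and Hist3h2a were in the total RNA table only. The gene name table lists 70 symbols of this pattern, and those outside the deposited tables were not analysed here. The rule reads symbols only, so it also took Hist3h2bb-ps, a pseudogene by its symbol, and Hist1h1t, Hist1h2aa and Hist1h2ba, which are known as testis histone genes.

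Mouse J1 embryonic stem cells of strain 129S4/SvJae, grown on gelatin without feeders in serum and LIF, were compared after shRNA knockdown of eIF4A2 and after control shRNA. The protocol names shNT and shGFP as controls and sheIF4A2-2 and sheIF4A2-3 against eIF4A2. The labels do not assign these shRNAs to single libraries. All groups carried an shRNA vector and were selected for 3 days in 1 μg/mL puromycin, and on day 4.5 all were lysed after 1 min in cycloheximide, an elongation blocker, at 0.1 mg/mL. Ribosome-protected fragments (footprints) and total RNA were each sequenced from 2 knockdown and 2 control libraries, which the protocol calls biological replicates.

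eIF4A2 is a DEAD-box RNA helicase related to the translation initiation factor eIF4A1. Histone genes of the clusters are mostly intronless, are transcribed in S phase, and supply the histones that package newly made DNA. Their mRNAs mostly end in a stem-loop bound by SLBP instead of a poly(A) tail, so they stay in libraries made by rRNA depletion. H2A, H2B, H3 and H4 form the nucleosome core and H1 binds the linker DNA. Each class is encoded by many near-identical copies, so how the authors' counting split reads among copies is uncertain, and class sums are given beside single genes.

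Values are on the CPM scale (reads per gene over an effective library size). Reads per library came to between 7947827 and 10682677 for footprints and between 8564582 and 12840349 for total RNA. Eif4a2, the targeted gene, had footprint values of 311 and 153 in the knockdown libraries and 395 and 409 in the controls. Its total RNA values were 583 and 617 in the knockdown and 739 and 969 in the controls. The knockdown libraries were lower in both assays, although limma's adjusted p was 0.273 for footprints and 0.290 for total RNA. The sums of the 9 pluripotency markers were 4889 and 4837 in the knockdown footprint libraries and 7115 and 6743 in the controls, with none of the 9 at 0. Of 7 fibroblast markers, 3 were in the tables, with summed footprint values between 12.6 and 20.4.

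Promoter sequence was looked up in RefSeq (GRCm38.p6), where all 50 genes matched 1 gene and 43 had 1 promoter entry. The stretches printed here run from base 120 to base 1 before the annotated start, 5′ to 3′ on the gene's strand. They show promoters of genes from each class, and for H3 and H4 also of a gene of the same class that differed less. Whether promoter sequence bears on the footprint differences was not tested. The first pair is H3, Hist1h3b with the lowest H3 footprint p and Hist1h3e with a difference near 0. The next 3 are H4, Hist1h4d and Hist1h4c with large differences and Hist1h4f with a small one. Hist1h2an and Hist1h2bp are transcribed away from each other out of 1 region, and Hist1h1e stands for the linker histones. Capitals mark the TATA, CCAAT, octamer and H1 box letters, spelled out after the sequences, on either strand.
Hist1h3b, chr13:23752225-23752344, plus strand: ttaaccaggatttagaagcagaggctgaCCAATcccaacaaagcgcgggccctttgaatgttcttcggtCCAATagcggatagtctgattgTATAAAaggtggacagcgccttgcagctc
Hist1h3e, chr13:23562386-23562505, minus strand: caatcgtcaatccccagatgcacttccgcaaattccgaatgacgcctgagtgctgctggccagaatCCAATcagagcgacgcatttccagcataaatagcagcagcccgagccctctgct
Hist1h4d, chr13:23581448-23581567, plus strand: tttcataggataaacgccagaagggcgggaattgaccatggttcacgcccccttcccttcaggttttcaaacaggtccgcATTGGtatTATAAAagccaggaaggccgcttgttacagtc
Hist1h4c, chr13:23698459-23698578, minus strand: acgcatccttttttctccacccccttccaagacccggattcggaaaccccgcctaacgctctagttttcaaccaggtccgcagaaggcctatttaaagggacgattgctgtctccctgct
Hist1h4f, chr13:23551669-23551788, minus strand: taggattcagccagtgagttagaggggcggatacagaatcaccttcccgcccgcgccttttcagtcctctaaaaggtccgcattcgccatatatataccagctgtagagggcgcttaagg
Hist1h2an, chr13:21787249-21787368, minus strand: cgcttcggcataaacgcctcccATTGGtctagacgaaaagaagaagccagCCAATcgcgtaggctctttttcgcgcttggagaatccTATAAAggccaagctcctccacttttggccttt
Hist1h2bp, chr13:21787368-21787487, plus strand: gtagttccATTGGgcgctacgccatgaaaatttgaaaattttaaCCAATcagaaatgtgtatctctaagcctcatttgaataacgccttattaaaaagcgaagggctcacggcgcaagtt
Hist1h1e, chr13:23622559-23622678, minus strand: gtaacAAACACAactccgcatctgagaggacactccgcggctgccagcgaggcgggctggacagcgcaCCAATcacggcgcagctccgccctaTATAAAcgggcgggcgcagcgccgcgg

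Motif letters were searched on both strands in the 250 bases before the start, in the 43 histone promoters and in all 32851 promoters of the table, which include them. The TATA letters TATAAA were in 25 of 43 histone promoters (58.1%) and in 12.4% of all promoters. CCAAT was in 35 of 43 (81.4%), against 33.8% of all. It was present in all 6 H1, all 14 H2A, all 8 H2B and all 4 H3 promoters, and in 3 of 11 H4 promoters. The octamer ATTTGCAT, the letters read by Oct factors, was in 11 of 43 (25.6%), against 1.60% of all. It occurred in 7 H2A and 4 H2B promoters and in no H1, H3 or H4 promoter. The windows of neighbouring genes that face away from each other can overlap, so a shared site was counted for both genes. The octamer of Hist1h2bg also lay in the window of Hist1h2ae, and that of Hist1h2bk in the window of Hist1h2ah. The octamer letters of Hist1h2ba and Hist1h2aa likewise lay where their windows overlap. The counts are therefore of promoters, not of separate sites. AAACACA, known as the H1 box, was in 8 of 43 (18.6%), against 6.25% of all, and 5 of those 8 were H1 genes. The site of Hist1h2ba also lay in the window of Hist1h2aa. TATAAA and AAACACA can share bases where they abut. A match describes letters only, and a missing match says only that these letters are not in the window.

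In footprints, histone genes lay mostly lower in the knockdown. The log2 fold change, on the log2(CPM + 1) scale, was below 0 for 38 of 47 histone genes, against 49.4% of all 12723 genes tested, and above 0 for 9, against 50.6%. Its median was -0.33 for the histone genes and 0.01 for all genes. In 18 histone genes both knockdown libraries were below both controls, against 22.5% of all genes. No histone gene had both knockdown libraries above both controls, against 22.3% of all genes, and in 29 the groups overlapped. No histone gene passed limma's test at an adjusted p below 0.05, and 0% of all genes did. At an unadjusted p below 0.05, 12 of 47 were lower (6.74% of all genes) and 0 were higher (6.12% of all genes). The smallest adjusted p among them was 0.168 by limma. Fewer cells in S phase and less histone mRNA or translation per cell cannot be told apart in these bulk libraries.

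**Figure D1:**
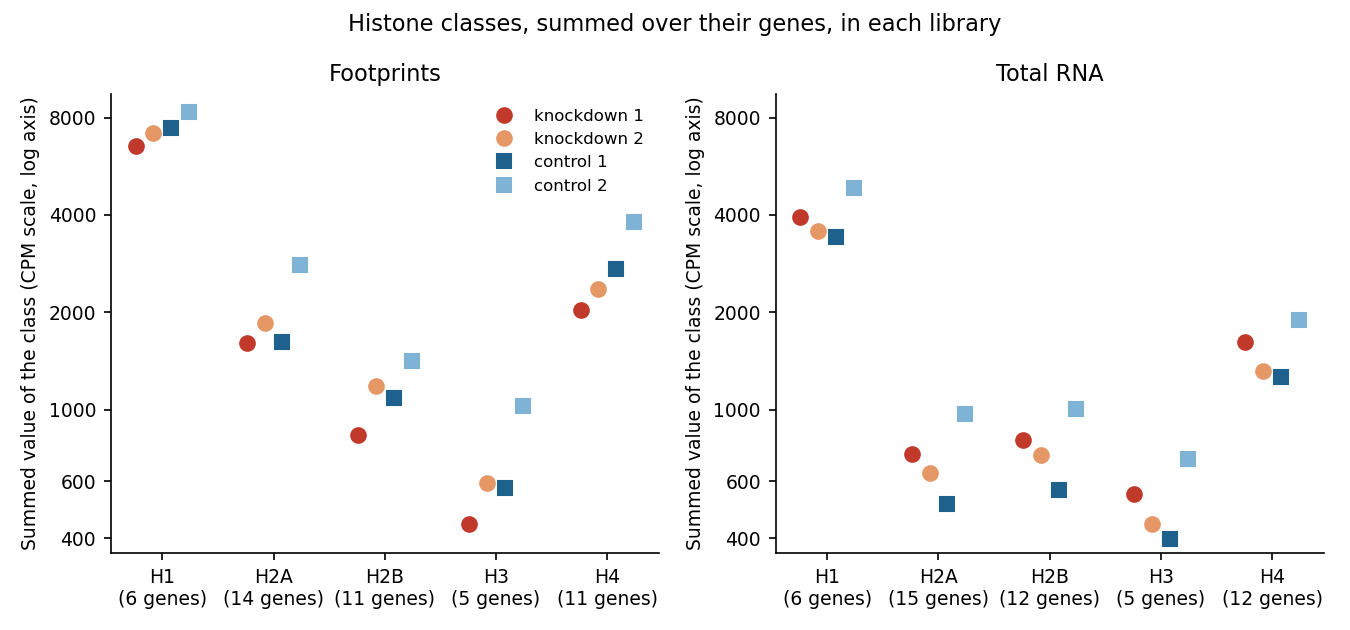
Summed value of each histone class (CPM scale, log axis) in each library, with footprints on the left and total RNA on the right and 1 point per library. Footprint sums of H1 and H4 are lower in both knockdown libraries than in both controls, and in total RNA control 1 is the lowest and control 2 the highest library in every class.

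The H4 class sum and 7 of the 11 H4 genes (against 22.5% of all genes) were lower in both knockdown libraries than in both controls. Their summed footprint value was 2034 and 2369 in the knockdown libraries and 2722 and 3797 in the controls, so the groups did not overlap and the knockdown mean was 67.6% of the control mean. In the other H4 genes the groups overlapped, and the median log2 fold change of the class was -0.46. Hist1h4d, the H4 gene with the most footprints, had 423 and 584 in the knockdown and 827 and 1029 in the controls. Its log2 fold change was -0.89 ± 0.22 (SE, n = 2 per group, limma adjusted p = 0.168). Without Hist1h4d the H4 sum still separated the groups, at 72.8% of control. Hist1h4c had footprint values of 259 and 296 in the knockdown and 337 and 819 in the controls, so control 2 stood far above the other 3 libraries. Its log2 fold change was -0.92 ± 0.35 (limma adjusted p = 0.322), and -0.28 without control 2. Hist1h4b had 47.7 and 66.7 in the knockdown and 78.2 and 101 in the controls. Hist1h4k had 15.6 and 24.8 in the knockdown and 26.1 and 41.3 in the controls. Neither overlapped, at -0.65 and -0.71 on the log2 scale. Hist1h4f, whose total RNA was the highest of the class, had 350 and 363 in the knockdown and 400 and 404 in the controls. That is a smaller separation, with a log2 fold change of -0.17 ± 0.16 (limma adjusted p = 0.693). The H4 genes ranged from -0.92 for Hist1h4c to 0.05 for Hist1h4m.

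The 5 H3 genes had the lowest median log2 fold change of the classes, -0.83, and also a wide spread. Their summed footprints were 443 and 595 in the knockdown and 572 and 1025.5 in the controls. The groups overlapped, since control 1 lay below knockdown 2. Hist1h3b had footprint values of 53.6 and 67.7 in the knockdown and 94.4 and 186 in the controls. Both knockdown libraries were lower, with a log2 fold change of -1.12 ± 0.29 (SE, limma adjusted p = 0.188). The authors' deposited table gives Hist1h3b a footprint log2 fold change of -1.21 at an FDR of 0.0139. It is the only histone gene below 0.05 for footprints in the authors' deposited table, where 0.889% of all genes were lower and 0.788% higher at that FDR. Hist1h3a had 122 and 131 in the knockdown and 168 and 302 in the controls, again without overlap (log2 fold change -0.83 ± 0.25, limma adjusted p = 0.253). Hist1h3c had 128 and 168 in the knockdown and 160 and 289 in the controls, so its groups overlapped. Hist2h3b had a log2 fold change of -1.23 with overlapping groups, and Hist1h3e lay at 0.09.

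H2B footprints overlapped between groups as a sum, with 833 and 1184 in the knockdown and 1084 and 1412 in the controls. The log2 fold change was negative for 10 of 11 H2B genes, with a median of -0.31. In 3 of the 11 both knockdown libraries were lower than both controls, against 22.5% of all genes. Hist1h2bc, the H2B gene with the most footprints, had 289 and 401 in the knockdown and 421 and 460 in the controls. Its groups did not overlap, at -0.37 ± 0.20 (SE, limma adjusted p = 0.469). Hist1h2bk had 79.1 and 79.9 in the knockdown and 99.9 and 122 in the controls. Hist1h2bp had 11.3 and 13.7 in the knockdown and 18.4 and 34.4 in the controls. The log2 fold changes of these were -0.47 and -0.96, both lower in each knockdown library. Hist1h2bb had 150 and 196 in the knockdown and 149 and 250 in the controls, which overlap. The pseudogene Hist3h2bb-ps had the lowest log2 fold change of the 47, -1.52 ± 0.64 (limma adjusted p = 0.371), from 1.35 and 5.96 in the knockdown and 5.10 and 21.0 in the controls. Its groups overlapped, and the low values make it a weak datapoint.

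H2A genes were the most mixed. Their summed footprints were 1612 and 1848 in the knockdown and 1620.2 and 2801.5 in the controls, so 3 of the 4 libraries were close and control 2 stood apart. The log2 fold change was negative for 9 of 14 genes, with a median of -0.31 and a range from -0.90 for Hist1h2aa to 0.40 for Hist2h2ab. Hist1h2aa had 12.0 and 10.8 in the knockdown and 18.5 and 26.6 in the controls, without overlap. Hist1h2ah had 70.1 and 97.5 in the knockdown and 101 and 222 in the controls. These were the only 2 of 14 H2A genes with both knockdown libraries lower than both controls, against 22.5% of all genes. Hist1h2ab had 192 and 114 in the knockdown and 188 and 319 in the controls, which overlap. Hist1h2ak, the H2A gene with the most total RNA, had 167 and 222 in the knockdown and 167 and 217 in the controls. Its log2 fold change was 0.02 ± 0.20 (limma adjusted p = 0.978).

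Linker histone genes gave the most footprint signal and the narrowest spread of differences. Summed H1 footprints were 6525 and 7166 in the knockdown and 7421 and 8338 in the controls, without overlap, and the knockdown mean was 86.9% of the control mean. The log2 fold changes of all 6 genes were negative, from -0.34 for Hist1h1t to -0.14 for Hist1h1b. In 4 of 6 both knockdown libraries were lower than both controls, against 22.5% of all genes. None of the 6 reached an unadjusted p below 0.05. Hist1h1a had 1986 and 2342 in the knockdown and 2218 and 2890.3 in the controls, which overlap. Hist1h1d had 1461 and 1598 in the knockdown and 1671 and 1721 in the controls. Hist1h1t had 37.7 and 33.3 in the knockdown and 48.8 and 41.8 in the controls. In the last pair of genes both knockdown libraries were lower than both controls, with log2 fold changes of -0.15 ± 0.20 and -0.34 ± 0.18 (limma adjusted p = 0.790 and 0.474).

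**Figure D2:**
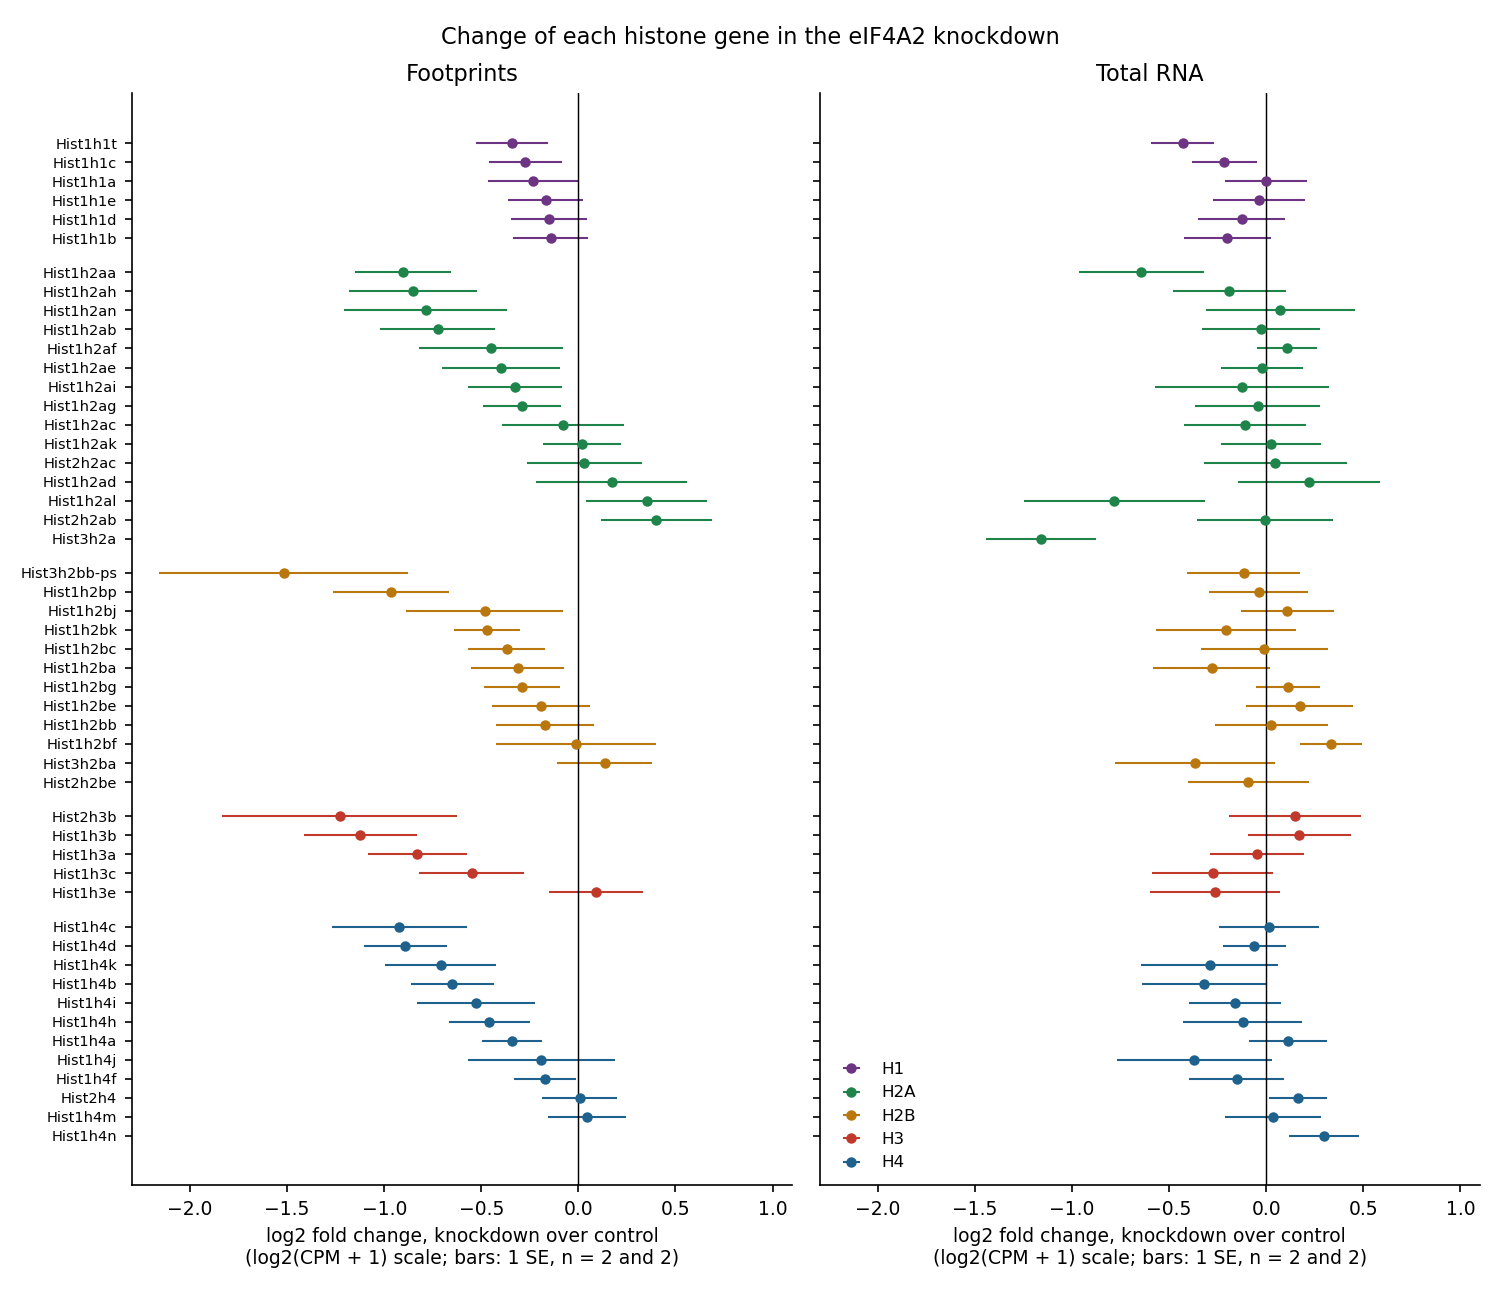
Log2 fold change of each histone gene (knockdown over control, log2(CPM + 1) scale, bars 1 SE, n = 2 and 2), by class, for footprints and total RNA. Footprint differences lie mostly below 0 with class medians from -0.83 (H3) to -0.20 (H1), while total RNA class medians run from -0.16 (H1) to -0.02 (H2B).

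The controls also differed from each other in histone footprints. Control 2 was above control 1 in 44 of 47 genes, with a median ratio of 1.44, against 1.01 over all genes. Control 2 was the highest of the 4 libraries in 35 genes, and control 1 was below both knockdown libraries in 9. Among the 44 histone genes with a mean of at least 10, the median log2 difference from knockdown 2 to control 1 was -0.04, with control 1 higher in 21. From knockdown 1 to control 2 it was 0.68, with control 2 higher in 43. The knockdown libraries also differed, with knockdown 2 above knockdown 1 in 35 of 44 genes. Without control 2 the footprint median was -0.13, with 30 of 47 genes negative, 2 lower at an unadjusted p below 0.05 (2.85% of all genes) and the H2A median at 0.09. Without control 1 the median was -0.54, with 44 of 47 negative and 21 lower at that p (3.86% of all genes). Without knockdown 1 it was -0.16 with 8 genes lower (8.47% of all genes), and without knockdown 2 it was -0.44 with 19 lower (10.2% of all genes). In each of these 4 limma fits 0 histone genes passed the adjusted threshold. Of all genes, 1 passed it without control 2, 4 without control 1, 20 without knockdown 1 and 36 without knockdown 2. edgeR's quasi-likelihood test on reads without control 2 called 0 histone genes and 3 of all genes (0.0236%). The lone library of a group was assumed to vary like the other group.

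Single genes also depended on control 2. Without it the footprint log2 fold change was -0.64 for Hist1h3b, -0.41 for Hist1h3a, -0.53 for Hist1h2bp and -0.59 for Hist3h2bb-ps. It was -0.35 for Hist1h2ab, -0.29 for Hist1h2ah and -0.39 for Hist1h4k. Each of these 7 values kept its sign and was smaller than with all 4 libraries by over 1.5 times. Hist1h4d was at -0.73 without control 2. Without knockdown 1, Hist1h4b was at -0.41 and Hist1h4k at -0.39. Both knockdown libraries were below the remaining control in 18 of 47 genes without control 2, against 33.8% of all genes. In 9 genes both were above it, and the share of all genes above it was not computed.

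**Figure D3:**
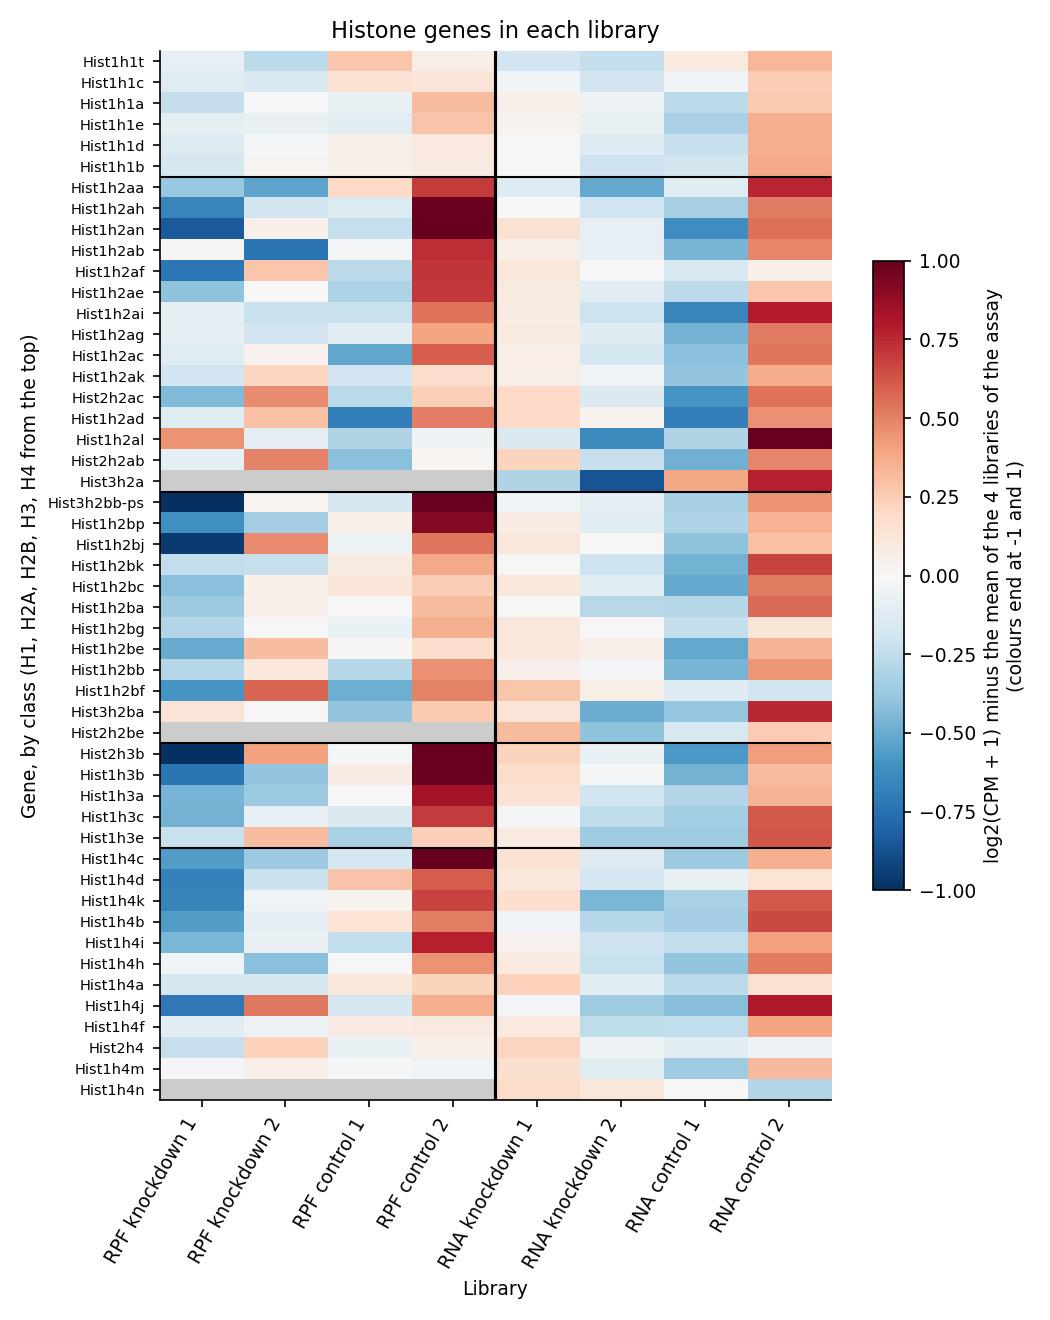
Heat map of log2(CPM + 1) for each histone gene, grouped by class, in the 4 footprint (RPF) and 4 total RNA libraries, minus the gene's mean over the libraries of that assay (red higher, blue lower, grey not in the footprint table). Control 2 is the highest library for 35 of 47 genes in footprints and 44 of 50 in total RNA, while RNA control 1 is below both knockdown libraries for 39 genes.

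Total RNA of the histone genes showed no separation of the groups by class. The log2 fold change was negative for 33 of 50 genes, against 50.3% of all 13436 genes tested, and positive for 17, against 49.7%, with a median of -0.05. Both knockdown libraries were below both controls in 3 genes (24.6% of all genes) and above them in 3 (23.3% of all genes), and 44 overlapped. No histone gene passed limma's adjusted threshold, and 0% of all genes did. At an unadjusted p below 0.05, 2 were lower (8.08% of all genes) and 0 higher (6.82%). edgeR's quasi-likelihood test on reads called 0 genes of the whole table, and DESeq2 called 272 (2.02%), none of them a histone gene.

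The order of the libraries was the same in each class sum of total RNA, namely control 1, knockdown 2, knockdown 1 and control 2 from low to high. Summed H1 total RNA was 3941 and 3574 in the knockdown and 3413 and 4864.5 in the controls. Summed H4 was 1624 and 1313 in the knockdown and 1261 and 1889.7 in the controls. Summed H3 was 550.5 and 444 in the knockdown and 399 and 706 in the controls. In each of them the knockdown libraries lay between the controls. Summed H2A was 732 and 636 in the knockdown and 509.7 and 969 in the controls, and summed H2B was 803.5 and 727 against 566 and 1003. Knockdown means were between 90.1% (H3) and 97.5% (H2B) of the control means. Control 2 was above control 1 in 48 of 50 genes with a median ratio of 1.77, against 1.04 over all genes. Control 1 was below both knockdown libraries in 39 genes, and control 2 was the highest library in 44. The 17 S phase genes had summed total RNA of 4507 and 4530.0 in the knockdown and 4380.0 and 5277 in the controls, with control 2 above control 1 in 16 of 17 genes. Their part in the histone values was not tested.

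Which control was kept set the direction in total RNA. Without control 1 the median was -0.48, and without control 2 it was 0.27. The lone control of these fits was assumed to vary like the knockdown, so counts of genes passing a threshold are not given here. Hist1h3b had total RNA values of 99.2 and 86.4 in the knockdown and 62.5 and 108 in the controls. Hist1h4d had 317 and 262 in the knockdown and 279 and 323 in the controls. Hist1h4c had 177 and 146 in the knockdown and 123 and 205 in the controls. In all 3 the groups overlapped, unlike their footprints. Hist1h1t had 19.9 and 19.2 in the knockdown and 24.6 and 29.1 in the controls, without overlap, at a log2 fold change of -0.43 ± 0.16 (limma adjusted p = 0.305). Hist3h2a, present in total RNA only, was covered by 6 and 0 reads in the knockdown libraries, against 12 and 19 reads in control 1 and control 2. Its log2 fold change was -1.16 ± 0.28 (limma adjusted p = 0.162), and the authors' deposited table gives -2.85 at an FDR of 0.00072, in a table where 3.19% of genes were lower and 2.21% higher at an FDR below 0.05. The size for Hist3h2a depended on the pseudocount, with -1.66 at 0.5 and -2.91 at 0.1, and edgeR on reads gave -2.85 (adjusted p = 0.215). With 1 library left out at a time, limma's log2 fold change for Hist3h2a ranged from -1.44 to -0.88.

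The change of footprints relative to total RNA was tested as an interaction over all 8 libraries for the 47 genes in both tables. It was negative for 38 of 47, against 50.8% of all 12358 genes, and positive for 9, against 49.2%, with a median of -0.26 on the log2 scale. No histone gene passed limma's adjusted threshold, and 0% of all genes did. At an unadjusted p below 0.05, 2 were lower (0.599% of all genes) and 0 higher (0.955%). These were Hist1h3b, at -1.29 ± 0.45, and Hist1h4d, at -0.83 ± 0.29 (SE, limma adjusted p = 1.00 for both). Without footprint control 2, Hist1h3b was at -0.81. Class medians were -0.04 for H1, -0.22 for H2A, -0.36 for H2B, -0.78 for H3 and -0.34 for H4. Leaving out 1 library at a time moved the median from -0.66 (without total RNA control 2) to 0.15 (without total RNA control 1).

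In the control cells, the median ratio of footprint value to total RNA value was higher for histone genes than for all genes. The tables were normalized separately, so these ratios rank genes within the study and have no absolute scale. The ratios were not adjusted for the coding length of each gene, and its part in them was not tested. Over 7944 genes with a control mean of at least 10 in both tables, the median ratio was 0.856 and the 5th to 95th percentiles spanned 0.357 to 1.76. Over the 47 histone genes, which were not held to that minimum, the median was 1.69. Class medians were 1.79 for H1, 2.06 for H2A, 1.39 for H2B, 1.56 for H3 and 1.83 for H4. The H1 genes spanned only 1.68 (Hist1h1b) to 2.26 (Hist1h1a). H2A genes spanned 0.492 (Hist1h2ad) to 8.69 (Hist1h2ag), and H4 genes 0.234 (Hist1h4m) to 3.81 (Hist2h4), so the ratios of single genes differed widely within a class. How reads were split among near-identical copies is uncertain, and its part in this spread was not tested. From class sums, the ratio was 2.09 in control and 1.52 in knockdown for H4, and 1.45 and 1.04 for H3. It was 1.90 and 1.82 for H1, 3.00 and 2.53 for H2A, and 1.60 and 1.32 for H2B. The H4 control ratio ranged from 1.45 to 3.05 over the 4 combinations of libraries, and the H4 knockdown ratio from 1.27 to 1.83, so these ranges overlapped.

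**Figure D4:**
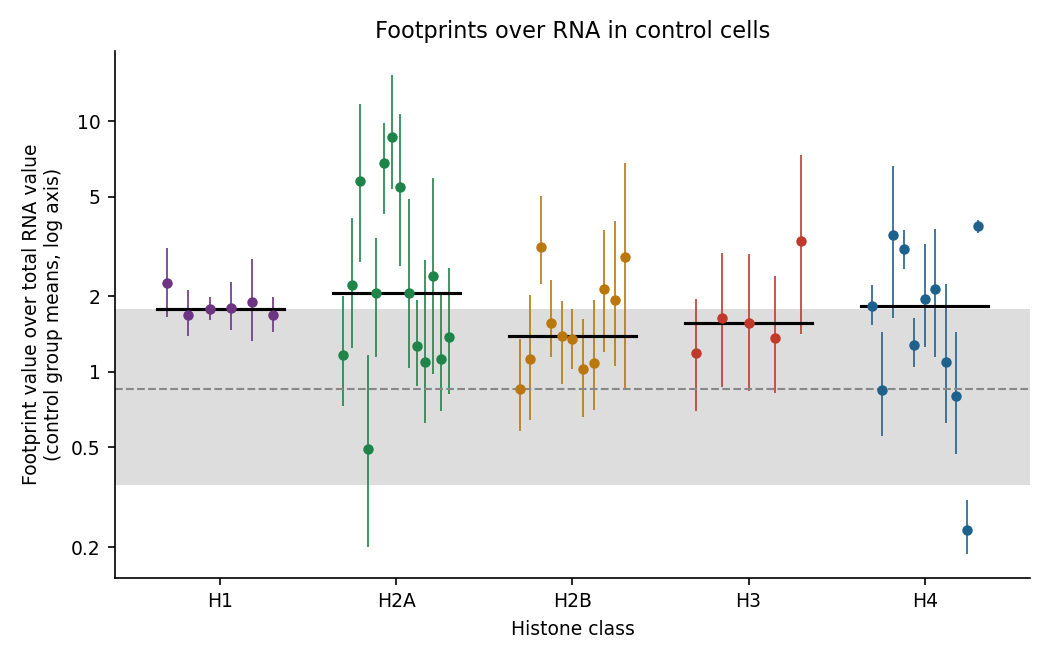
Footprint value over total RNA value from the control means (log axis), 1 point per histone gene, with bars for the range over the 4 combinations of control libraries, black lines for class medians, and a dashed line and grey band for the median and the 5th to 95th percentiles of all genes. Class medians lie between 1.39 and 2.06, above 0.856, the median of all genes with a control mean of at least 10 in both assays. Single genes run from 0.234 (Hist1h4m) to 8.69 (Hist1h2ag).

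Genes that make or use histones were looked at from lists. Of 20 tested histone mRNA processing genes, 13 had a negative footprint log2 fold change and 7 a negative total RNA one, with medians of -0.05 and 0.03. At an unadjusted p below 0.05, 1 of the 20 was lower and 1 higher in each assay. Of all genes, 6.74% were lower and 6.12% higher at that p in footprints, and 8.08% and 6.82% in total RNA. Eri1, an exonuclease that trims the histone mRNA end, had footprints of 49.5 and 33.1 in the knockdown and 61.1 and 68.9 in the controls, without overlap (limma adjusted p = 0.269). Upf1, a helicase that takes part in histone mRNA decay, had 241 and 276 in the knockdown and 203 and 197 in the controls (limma adjusted p = 0.383). Slbp, which binds the stem-loop, had 186 and 180 in the knockdown and 219 and 217 in the controls (limma adjusted p = 0.529). Npat, a coactivator of histone transcription, had 43.5 and 57.0 in the knockdown and 40.1 and 51.2 in the controls, which overlap. None of the 20 passed the adjusted threshold in either assay.

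Of 14 replication-coupled histone chaperones, 8 had a negative footprint log2 fold change and 6 a negative total RNA one. Chaf1b was lower at an unadjusted p below 0.05 in both assays (6.74% of all genes in footprints, 8.08% in total RNA). Chaf1b, a subunit of the chromatin assembly factor CAF-1, had footprints of 59.4 and 73.6 in the knockdown and 92.9 and 103 in the controls. Of 11 replacement histone genes outside the clusters, which are mostly expressed through the cell cycle from polyadenylated mRNA, 9 were negative in each assay, with medians of -0.33 and -0.29. H1f0, a replacement linker histone, had footprints of 22.4 and 18.3 in the knockdown and 31.7 and 39.4 in the controls (limma adjusted p = 0.211). Its total RNA was 41.8 and 35.1 in the knockdown and 74.8 and 61.4 in the controls, so both assays separated the groups for H1f0. H2afx, the DNA damage variant, had a footprint log2 fold change of 0.20 and a total RNA one of -0.48. Of 17 S phase genes, 13 were negative in footprints, with a median of -0.13, and 11 in total RNA, with a median of -0.03. None of these genes passed limma's adjusted threshold.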

How the data were processed

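Footprints and total RNA were measured in 8 libraries, 2 in each of 4 groups. The authors deposited 1 table per assay, whose library columns are signal on the CPM scale, that is, reads per gene divided by an effective library size. Beside them stand the authors' own statistics, namely a log2 fold change, a mean log2 level, a likelihood ratio score, and p-values with FDR. Per the submitters' processing notes, the tools were edgeR 3.26.8, HTSeq 0.11.2, TopHat2 2.1.1 and Bowtie 1.2.3 with build mm9. Every value was a whole multiple of its column's lowest nonzero value within 0.01, which gave the reads per library.

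Genes were filtered with edgeR 4.0.16 filterByExpr (minimum count 10, minimum total 15) on those reads. The main test was limma 3.58.1 in R 4.3.3 on log2(value + 1) with a mean-dependent prior and Benjamini-Hochberg adjustment over all genes at 0.05. The reads of footprint control 2, where 1 read was worth 0.0991, were used for depth and for the filter and entered no count test. edgeR and DESeq2 1.42.0 were run on total RNA reads as alternatives. The fits were tested on simulated data with 200 changed genes. With 2 libraries per group, the number of libraries limits the precision, and p-values measure only the spread between these samples.

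Named histone genes were the 2 of each class with the most total RNA and those with an unadjusted p below 0.05 in either assay. Other genes named as class extremes or beside a printed promoter were chosen after their values were seen. The members and lists were chosen with earlier results of these data known. Promoters came from RefSeq (GRCm38.p6). Other pseudocounts, filters, scalings, a replicate block and leaving out each library were tried.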

Additional observations from a re-analysis of the deposited data

How the results depend on the processing

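With 1 library left out at a time, the median footprint log2 fold change ranged from -0.54 to -0.13 over all histone genes, and by class from -0.25 to -0.13 (H1), -0.67 to 0.09 (H2A), -0.60 to -0.11 (H2B), -1.25 to -0.35 (H3), -0.72 to -0.24 (H4). The histone genes with the knockdown apart and lower were 18 without control 2 and 37 without control 1, against 33.8% of all genes each. They were 21 without knockdown 1 (38.6% of all genes) and 34 without knockdown 2 (38.3%). Without control 2, and again without knockdown 1, 9 were apart and higher. The share of all genes apart and higher was not computed. The median total RNA log2 fold change then ranged from -0.48 to 0.27 over all histone genes, and by class from -0.40 to 0.12 (H1), -0.52 to 0.41 (H2A), -0.40 to 0.30 (H2B), -0.36 to 0.27 (H3), -0.41 to 0.18 (H4). Genes lower at an unadjusted p below 0.05 ranged from 1 (without knockdown 2, against 2.6% of all genes) to 42 (without control 1, against 26.6%). Adjusted calls by limma ranged from 0 to 41, with 41 without control 1, where 6191 of all 13436 genes were called. The lone control of that fit was assumed to vary like the knockdown, so no conclusion is drawn from these calls. Genes with the knockdown apart and lower ranged from 3 to 44 (44 without control 1, against 45.6% of all genes), with 39 apart and higher without control 2. The median footprint-to-RNA log2 fold change then ranged from -0.66 to 0.15 over all histone genes, and by class from -0.27 to 0.21 (H1), -0.65 to 0.31 (H2A), -0.79 to 0.06 (H2B), -1.20 to -0.36 (H3), -0.69 to 0.05 (H4). Genes lower at an unadjusted p below 0.05 ranged from 0 to 13 (13 without total RNA control 2, against 1.29% of all genes). Adjusted calls by limma ranged from 0 to 0. The log2 ratio of footprint class sums ranged from -0.28 to -0.12 (H1), -0.70 to 0.094 (H2A), -0.58 to -0.08 (H2B), -0.98 to -0.14 (H3), -0.79 to -0.31 (H4). The log2 ratio of total RNA class sums ranged from -0.37 to 0.14 (H1), -0.50 to 0.42 (H2A), -0.39 to 0.44 (H2B), -0.50 to 0.32 (H3), -0.36 to 0.22 (H4). With libraries centred on their median the H1 footprint median was -0.24. A filter of a mean of at least 10, and all 8 libraries in 1 fit, each left 1 histone gene lower in total RNA at an unadjusted p below 0.05 (7.28% and 6.73% of all genes). Across genes, the difference between replicates 1 and 2 of the knockdown was correlated with that of the controls. The correlation was 0.231 in footprints and -0.275 in total RNA, over 2 pairs. Between assays, the replicate differences of the same group correlated at 0.114 (knockdown) and 0.213 (control). The labels tie no number to a shared culture or batch, and 2 pairs are too few to settle the pairing. With a replicate block limma called 0 histone genes in footprints (21 of all genes) and 1 in total RNA (Hist3h2a, 636 of all genes), and 7 were lower in the footprint-to-RNA test at an unadjusted p below 0.05 (0.704% of all genes). With crossed numbers, added after seeing the data, 1 was called in total RNA (924 of all genes). edgeR's quasi-likelihood test on footprints without control 2, also added after seeing the data, gave medians of -0.12 (H1), 0.13 (H2A) and -0.27 (H3). Other pseudocounts, scalings and filters kept the footprint median of all histone genes between -0.37 and -0.32.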

Other observations

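Of 8 neighbouring histone gene pairs that face away from each other, 6 paired an H2A with an H2B gene. Footprint log2 fold changes within these 6 pairs differed by between 0.11 and 0.59. Hist1h2an and Hist1h2bp lay at -0.79 and -0.96, and Hist1h2ah and Hist1h2bk at -0.85 and -0.47. Hist1h2ag and Hist1h2bj lay at -0.29 and -0.48, and Hist1h2ae and Hist1h2bg at -0.40 and -0.29. Hist1h2bf and Hist1h2ad lay near 0, at -0.01 and 0.17. Hist1h2ba and Hist1h2aa lay at -0.31 and -0.90. These pairs were looked at after the values were seen, and no test was made of them.

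By cluster, the 41 Hist1 genes in the footprint table had a median log2 fold change of -0.34, with 36 negative. In 18 of them both knockdown libraries were lower than both controls, against 22.5% of all genes. The 4 Hist2 genes had a median of 0.02, with 1 negative and 0 separating the groups. The difference between clusters was not tested.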
